A study of Mus musculus with 4 samples.

Results

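The endothelin and angiotensin systems are represented here by 7 genes, chosen by name from the deposited gene table: the ligand gene Edn1, its converting enzyme gene Ece1, the endothelin receptor genes Ednra and Ednrb, the angiotensin-converting enzyme gene Ace, the angiotensin receptor gene Agtr1a and the neprilysin gene Mme. All 7 were found among 17915 coding genes, and 5 of them were among the 13177 genes with enough counts to be tested. Libraries came from sorted lung endothelial cells of mice of genotype Cdh5-CreER;aSMA-LSL-Dre;NR1. All mice received tamoxifen 5 times and were taken 6 weeks after transverse aortic constriction (TAC), a narrowing of the aorta that loads the heart and, per the study's design text, led to lung fibrosis. Both groups therefore share genotype, tamoxifen and surgery, and no library of unoperated mice was analysed here. The groups were 2 libraries of tdTomato+ cells, in which the alpha smooth muscle actin locus had been active at some time, and 2 libraries of ZsGreen+ cells, which carry the endothelial label without that record. The CreER recombinase is driven by the endothelial Cdh5 promoter, the record is permanent once made, and the age of the mice and the number pooled per library are not given in the labels. The titles call the replicates biological, but whether they came from separate mice is likewise not given. The p-values therefore rest on the spread among 4 libraries, part of which may be technical.

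Endothelin-1 is a vasoconstrictor peptide that endothelial cells make as a long precursor, which the membrane protease ECE1 cuts to its active form. The receptor ETA (Ednra) acts mainly on smooth muscle, whereas ETB (Ednrb) on endothelium takes up endothelin and stimulates nitric oxide release. ACE on the lumenal face of lung capillaries converts angiotensin I to angiotensin II and also destroys bradykinin, AT1 (Agtr1a) is the main receptor for angiotensin II, and neprilysin (Mme) degrades endothelin, angiotensin and kinin peptides.

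The ligand-making and peptide-converting genes were abundant in both groups, the receptor genes were low or near the floor, and no gene of the 7 passed the test between the groups. Levels of different genes were compared in TPM, the share of transcripts on a common scale, which corrects for length. Over the 4 libraries Ace stood at 967 ± 79.2 TPM (SD, n = 4), Ece1 at 458 ± 51.3 TPM and Edn1 at 271 ± 66.7 TPM. Ranked by this mean level they were at positions 183, 377 and 638 of 17915 genes. Ednrb followed at 7.38 ± 3.14 TPM, and then Ednra at 0.435 ± 0.0387, Agtr1a at 0.19 ± 0.113 and Mme at 0.175 ± 0.0819 TPM. Ace was above Ece1 in every library, by 1.66 to 2.49 times in TPM. Ece1 was above Edn1 in every library, by 1.32 to 2.45 times. Ednrb was 9.82 to 26.9 times as high as Ednra in TPM. At the low end Agtr1a and Mme could not be ordered, because their libraries overlapped.

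**Figure D1:**
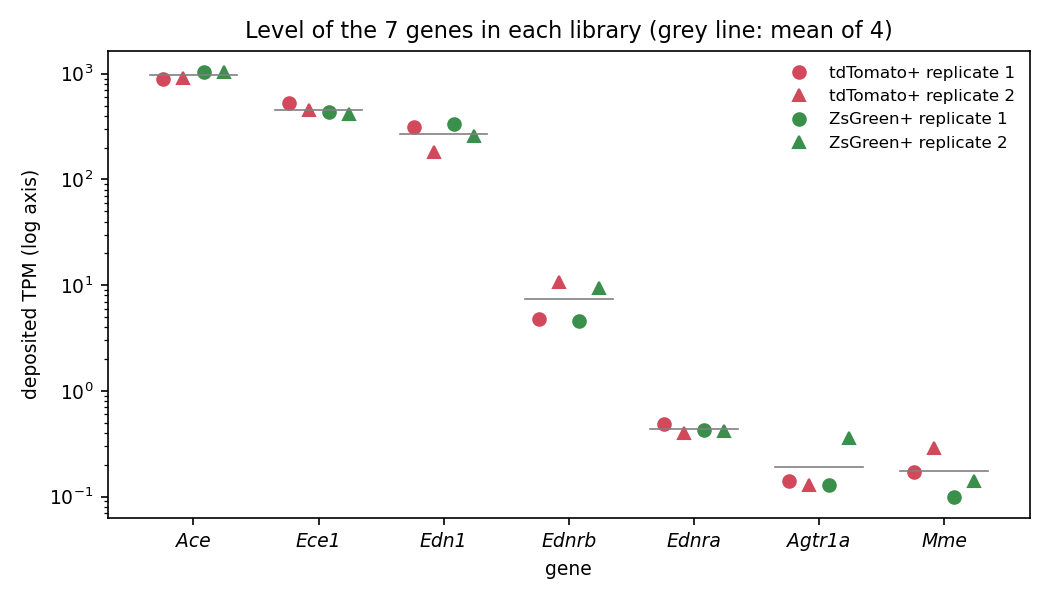
Deposited TPM (log axis) of the 7 genes in each of the 4 libraries, with colour for the group, shape for the replicate and a grey line for the mean of the 4. Ace, Ece1 and Edn1 lie between 183 and 1039 TPM, Ednrb between 4.62 and 10.8 TPM, and Ednra, Agtr1a and Mme below 0.5 TPM in all libraries.

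For the comparison of tdTomato+ with ZsGreen+ cells, edgeR's quasi-likelihood test was fitted on all 13177 genes, and p-values were adjusted by Benjamini-Hochberg over all of them. It called 40 genes, or 0.304%, at an adjusted p under 0.05, and 0 of the 5 tested members. At an unadjusted p under 0.05 it was also 0 of 5, against 8.77% of all genes tested. DESeq2, which fitted all 7 members and left Agtr1a without an adjusted p, and limma-voom, which fitted 5, also called 0. Acta2, the gene whose locus the recorder reads, was called, with 304 and 528 CPM in tdTomato+ and 87.6 and 82.9 CPM in ZsGreen+ libraries (log2 fold change 2.29, edgeR adjusted p = 0.0432). That call ended without tdTomato+ replicate 2 (edgeR adjusted p = 0.126) or ZsGreen+ replicate 2 (0.111). CPM is the count on a common library size, scaled by edgeR, and all fold changes are tdTomato+ over ZsGreen+. The median log2 fold change of the 5 members was -0.09, beside -0.01 over all genes tested. The libraries held 17050673 to 18574737 counts.

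Edn1 (NCBI Gene 13614; chromosome 13, 42301476 to 42307990, plus strand, GRCm38) encodes preproendothelin-1. Its level was 313 and 183 TPM in tdTomato+ libraries 1 and 2, and 332 and 257 TPM in ZsGreen+ libraries 1 and 2. The groups overlapped: tdTomato+ library 1 lay above ZsGreen+ library 2. On the CPM scale the means were 304 ± 102 in tdTomato+ cells and 409 ± 120 in ZsGreen+ cells (SD, n = 2). The log2 fold change was -0.43 (SE 0.31, 95% interval -1.15 to 0.30, edgeR adjusted p = 0.816), so the interval runs from 0.449 to 1.23 times the ZsGreen+ level. In each group the library numbered 2 was lower than the library numbered 1, at 0.616 times its CPM in tdTomato+ and 0.656 times in ZsGreen+ cells. The titles give the number as that of a biological replicate, but do not say what a number shared by both groups stands for. The size of the value changed with the libraries used. Leaving out tdTomato+ replicate 1 gave -0.82 and leaving out ZsGreen+ replicate 2 gave -0.70. Leaving out tdTomato+ replicate 2 gave -0.10, and ZsGreen+ replicate 1, -0.09. None of these was called.

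Of the factors known to act on the Edn1 promoter, 9 were listed, all 9 were tested and 0 were called. Their median log2 fold change was 0.07. The smallest p was that of Smad3, which carries TGF-beta signals, with 26.2 and 20.8 CPM in tdTomato+ and 12.2 and 8.82 CPM in ZsGreen+ libraries (1.17, SE 0.28, edgeR adjusted p = 0.216). Foxo1, a forkhead factor, had 0.40 (SE 0.17), and Gata2, an endothelial GATA factor, had -0.15 (SE 0.19). Jun and Fos, the AP-1 subunits, named after their values were seen, were higher in the libraries numbered 1, as Edn1 was. Jun stood at 2113 and 1382 CPM in tdTomato+ libraries 1 and 2 and at 2379 and 1405 CPM in ZsGreen+ libraries 1 and 2. Fos stood at 2966 and 2239 CPM in tdTomato+ and at 3050 and 1813 CPM in ZsGreen+ cells. Smad3, given above, also had this order. Hif1a, Gata2, Klf2 and Klf4, also named after their values were seen, did not. Hif1a was higher in the libraries numbered 2, at 151 and 158 CPM in tdTomato+ and 113 and 182 CPM in ZsGreen+ cells. Gata2, Klf2 and Klf4 were higher in library 2 of tdTomato+ but in library 1 of ZsGreen+ cells. With 4 libraries no correlation was computed. Among 10360 genes averaging 5 CPM or more, the profiles nearest to Edn1 across the 4 libraries were those of Psmc3ip, a recombination cofactor, and Cdh5, VE-cadherin. Their distances were 0.0701 and 0.0829 (Euclidean, on centred log2 CPM). Cdh5 stood at 1803 and 1112 CPM in tdTomato+ and at 2422 and 1469 CPM in ZsGreen+ libraries. It was picked for its nearness to Edn1, so the shared order is no separate result. The endothelial markers Tek and Tie1, named after their values were seen, were higher in library 2 of each group. Tek stood at 356 and 411 CPM in tdTomato+ and at 283 and 420 CPM in ZsGreen+ libraries. The summed level of 10 macrophage markers was, like Edn1, higher in the library numbered 1 of each group. The sums were 5541 and 2651 CPM in tdTomato+ and 3124 and 734 CPM in ZsGreen+ cells. Lyz2 and Chil3 made up most of these sums. Marco ran the other way in both groups (11.3 and 55.2 CPM in tdTomato+, 4.999 and 12.7 CPM in ZsGreen+ cells), and Mrc1 did so in ZsGreen+ cells (15.6 and 20.8 CPM); both are named after their values were seen. The part of those cells in the Edn1 values was not tested.

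Ece1 (NCBI Gene 230857; chromosome 4, 137862237 to 137965229, plus strand) encodes the protease that cuts big endothelin. It stood at 531 and 450 TPM in tdTomato+ and at 437 and 413 TPM in ZsGreen+ libraries. In TPM the groups did not overlap, with tdTomato+ higher, as was so for 28.8% of the genes tested. On the CPM scale they did overlap, at 1468 and 1306 CPM against 1493 and 1198 CPM. The log2 fold change was 0.04 (SE 0.21, 95% interval -0.45 to 0.54, edgeR adjusted p = 0.979), or 0.731 to 1.45 times the ZsGreen+ level. The TPM scale itself moved the median of all genes: limma on log2(TPM + 1) gave a median log2 fold change of 0.12, which is 0.13 above that of the edgeR fit. Ece1 had 0.20 on that scale, and 0.08 after subtraction of the median. Its direction turned without tdTomato+ replicate 1 (-0.05) and without ZsGreen+ replicate 2 (-0.11). The nearest profiles were those of the DNA helicase Helb and the lipid kinase Pip4k2b, at distances of 0.0234 and 0.0251.

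The other endothelin genes and relatives of Ece1 and Mme were hardly read. Of a list of 7, 6 were in the table and 0 had enough counts to be tested. Edn2 and Edn3, the genes of the other endothelin peptides, had at most 3 counts in any library, and so had Mmel1, a neprilysin-like protease. Ece2 had 0 counts in all 4 libraries, which allows a level of up to 0.158 to 0.19 CPM (3 counts in a library).

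Ednrb (NCBI Gene 13618; chromosome 14, 103814615 to 103844508, minus strand) encodes the endothelin receptor of endothelium. Its level was 4.81 and 10.8 TPM in tdTomato+ libraries 1 and 2, and 4.62 and 9.34 TPM in ZsGreen+ libraries 1 and 2. The libraries separated by number and not by group. Library 2 was at 2.34 times the CPM of library 1 in tdTomato+ and at 1.75 times in ZsGreen+ cells. Of all genes tested, 318 or 2.41% had both libraries numbered 2 at 1.5 times or more of both libraries numbered 1. The counts behind this were 175, 429, 186 and 376, with 95% Poisson intervals of 150 to 203, 389 to 472, 160 to 215 and 339 to 416. Those intervals cover counting error only, since amplified reads without molecular identifiers are not independent molecules. Between the groups the log2 fold change was -0.01 (SE 0.45, 95% interval -1.09 to 1.07, edgeR adjusted p = 0.997), so levels from 0.471 to 2.09 times that of ZsGreen+ cells lie in the interval. Without single libraries the value ranged from -0.73 to 0.47. The reticulon gene Rtn1 was among the 2 nearest profiles, at a distance of 0.157.

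Edn1 and Ednrb differed in opposite directions between the numbered libraries. The ratio of Edn1 to Ednrb in TPM was therefore 65.1 and 71.8 in the libraries numbered 1, of tdTomato+ and ZsGreen+ cells in turn, and 17.0 and 27.5 in the libraries numbered 2. In both groups ligand transcripts far outnumbered those of this receptor.

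**Figure D2:**
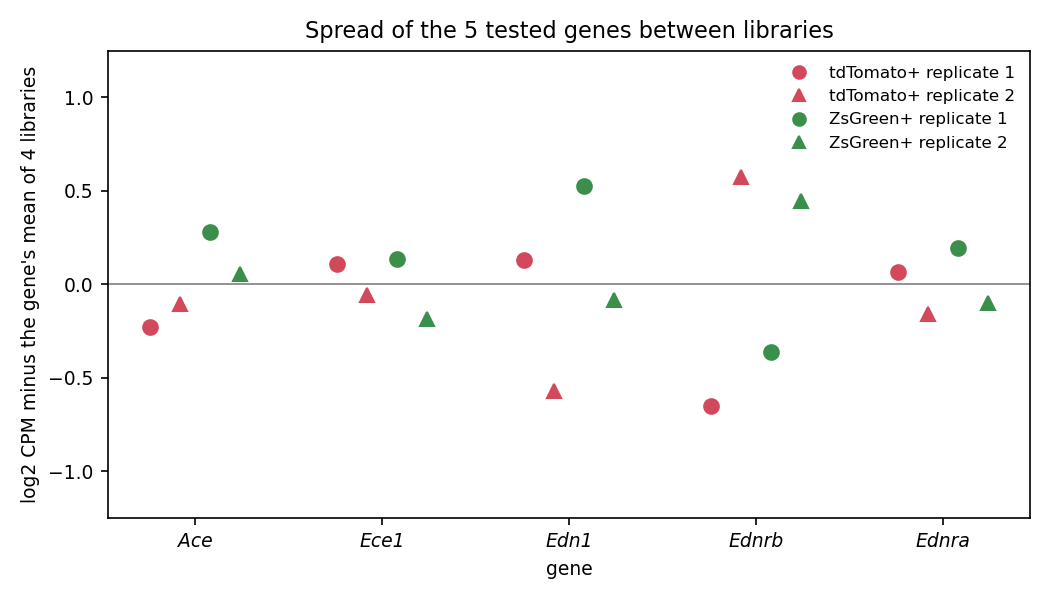
CPM of the 5 tested genes in each library on a log2 scale, each gene centred on its own mean of 4 libraries, with colour for the group and shape for the replicate. Ace separates by colour, Ednrb by shape (higher in both libraries numbered 2), and the 2 libraries of a group lie farthest apart for Ednrb and Edn1.

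Ednrb is known as a marker of aerocytes, the large alveolar capillary cells specialised for gas exchange, and 10 other genes known from these cells were listed beside it. All 10 had log2 fold changes below 0, with a median of -0.80, and 1 was called lower, as were 0.137% of all genes tested. That gene, Prx, the scaffold protein periaxin, stood at 31.8 and 28.6 CPM in tdTomato+ against 90.4 and 112 CPM in ZsGreen+ cells (-1.74, SE 0.20, edgeR adjusted p = 0.0304). The Prx call ended without tdTomato+ replicate 1 (edgeR adjusted p = 0.114), without tdTomato+ replicate 2 (0.295) and on the TPM scale (limma adjusted p = 0.12). Igfbp7, Nrp1 and Kdr, the most abundant of the 10, had -0.29 (SE 0.31), -0.12 (SE 0.19) and -0.37 (SE 0.20) and were not called. In bulk libraries fewer cells of a type and less RNA per cell cannot be told apart. Whether Ednrb differs from these genes in its response was not tested. Its interval overlaps those of 9 of the 10 and lies above that of Prx (-2.21 to -1.28). Lower values were not confined to aerocyte genes. Of 10 general capillary markers 7 lay below 0 and 3 above, with a median of -0.20 and 0 called.

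**Figure D3:**
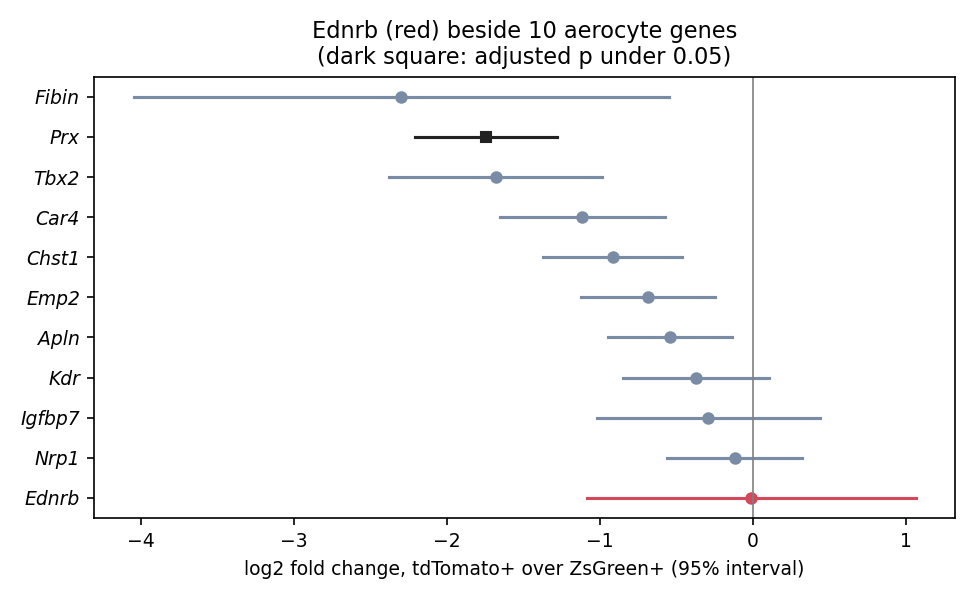
Log2 fold change (tdTomato+ over ZsGreen+) with 95% intervals from edgeR for 10 aerocyte genes, ordered by value, and for Ednrb in red. Ednrb lies at -0.01 with an interval of -1.09 to 1.07, the 10 others lie below 0, and Prx (dark square, -1.74) is the call among them.

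Ednra (NCBI Gene 13617; chromosome 8, 77663029 to 77724452, minus strand), the receptor that mediates contraction of smooth muscle, was near the floor. Its libraries held 19 and 17 counts in tdTomato+ and 18 and 17 counts in ZsGreen+ cells, at 0.49 and 0.40 TPM against 0.43 and 0.42 TPM. The 95% Poisson intervals of the 4 counts overlapped and ran from 9.9 to 29.7. The log2 fold change was -0.09 (SE 0.65, 95% interval -1.63 to 1.44, edgeR adjusted p = 0.987). At this depth a level between 0.324 and 2.72 times that of ZsGreen+ cells lies in the interval.

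Because Ednra and Agtr1a are known from smooth muscle, pericytes and fibroblasts, markers of those cells are given beside them. The list of 14 smooth muscle and pericyte markers summed to 1371 and 1843 CPM in tdTomato+ and to 1336 and 935 CPM in ZsGreen+ libraries, and 0 of its 13 tested genes were called. Tagln, the actin-binding protein transgelin, made up most of it, at 1336 and 1787 CPM against 1300 and 894 CPM. Des, desmin, and Cnn1, calponin, had means of 15.8 and 5.61 CPM, and no marker of the list was at 0 in all libraries. Their log2 fold changes were -0.18 (SE 0.33) and 0.69 (SE 0.50). Of the 13 tested, 9 lay above 0 and 4 below. The lowest was Kcnj8, named after its value was seen (-2.77, SE 0.80, at a mean of 1.48 CPM). The 12 fibroblast markers summed to 274 and 486 CPM against 139 and 157 CPM, with 0 called, a median log2 fold change of 1.11 and none at 0 everywhere. Of these 12, 11 had log2 fold changes above 0 and 1 below. Col1a1, Col3a1 and Pi16, the most abundant of them, had 1.59 (SE 0.45), 1.65 (SE 0.34) and 2.49 (SE 0.43). Pdgfra (0.21, SE 0.52), Tcf21 (0.32, SE 0.67) and Npnt (-0.35, SE 0.28), named after their values were seen, overlapped between the groups. Ednra had 17 to 19 counts in these libraries. The part of these cells in the receptor counts was not tested.

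Agtr1a (NCBI Gene 11607; chromosome 13, 30336356 to 30382867), the angiotensin II receptor, had 3 counts in each of 3 libraries and 8 counts in ZsGreen+ library 2. These are 0.14 and 0.13 TPM in tdTomato+ and 0.13 and 0.36 TPM in ZsGreen+ libraries. It did not reach the count minimum for testing, and no fold is given, since 3 counts is the floor used here. The 95% Poisson intervals, 0.619 to 8.77 for 3 counts and 3.45 to 15.8 for 8 counts, overlapped.

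Ace (NCBI Gene 11421; chromosome 11, 105967948 to 105989964, plus strand) was the most abundant of the 7 genes in every library. It stood at 883 and 916 TPM in tdTomato+ libraries and at 1039 and 1030.1 TPM in ZsGreen+ libraries. Both tdTomato+ libraries were lower than both ZsGreen+ libraries, in TPM and in CPM, where they were at 2493 and 2713 against 3541 and 3031. Such a separation with tdTomato+ lower was seen for 8.17% of all genes tested in TPM and for 18.2% in CPM. The log2 fold change was -0.34 (SE 0.20, 95% interval -0.81 to 0.14, edgeR adjusted p = 0.761), and the interval runs from 0.571 to 1.1 times the ZsGreen+ level. The value was negative under each of the 14 alternatives tried, from -0.45 to -0.20, with adjusted p from 0.338 to 1. The nearest profiles were those of the aldehyde reductase Akr1a1 and the matrix protein gene Sparc, at distances of 0.0173 and 0.0238. Summed over 10 endothelial markers, the level was 9710 and 9565 CPM in tdTomato+ and 12560 and 10800 CPM in ZsGreen+ cells. The sums of both tdTomato+ libraries were thus lower in CPM, as Ace was, and 0 of the 10 markers was called. Of the 10, 8 had log2 fold changes below 0 and 2 above. Emcn, named after its value was seen, was higher in tdTomato+ libraries, at 617 and 677 CPM against 517 and 533 CPM. Pecam1, a defining endothelial adhesion molecule, stood at 1862 and 1809 CPM against 2104 and 1940 CPM. In TPM its groups overlapped, at 986 and 912 against 900 and 977. The defining endothelial markers Pecam1 and Cdh5 were thus read at 1112 CPM or more in every library.

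Ace has an upstream start, used in somatic cells, and an internal start known from male germ cells. The deposited values sum over 3 transcripts, so the starts cannot be told apart here. The 250 bases before the upstream Ace start and before the Edn1 start, from RefSeq's GRCm38.p6 annotation, are shown to set the most abundant member beside the ligand gene. Capitals mark matches on either strand to any of 3 motifs. The first is the GC box, read by Sp1-type factors, spelled GGGCGG. For GATA factors the site searched for was AGATAA. As core promoter element the TATA box was searched for with the letters TATAAA.
Ace, chr11:105967698-105967947, plus strand: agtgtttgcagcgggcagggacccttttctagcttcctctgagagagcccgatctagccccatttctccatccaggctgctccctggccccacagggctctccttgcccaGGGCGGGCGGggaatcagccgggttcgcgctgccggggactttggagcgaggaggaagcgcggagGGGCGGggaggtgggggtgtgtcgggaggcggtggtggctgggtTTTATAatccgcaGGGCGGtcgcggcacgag
Edn1, chr13:42301226-42301475, plus strand: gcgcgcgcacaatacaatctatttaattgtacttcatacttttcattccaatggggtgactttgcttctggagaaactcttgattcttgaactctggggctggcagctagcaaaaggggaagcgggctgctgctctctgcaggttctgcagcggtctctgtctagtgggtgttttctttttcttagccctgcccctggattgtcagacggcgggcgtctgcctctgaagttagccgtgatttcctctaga
The Ace window held 4 GC boxes, 2 of them overlapping, and 1 TATA box match on the opposite strand, at 67.2% G and C. The Edn1 window held 0 matches of any of these motifs, at 50.4% G and C. The windows of Ednra and Ednrb also held 0 matches, and that of Ednrb lies inside the gene span given above. For these genes only the exact spellings in 1 window each were searched, so other sites and starts are not covered. Of 32851 windows of this length, 32.7% held a GC box, 9.99% a GATA site and 12.4% a TATA box. A match describes letters and shows no bound factor. RefSeq windows were found for 6 of the 7 genes, all but Agtr1a.

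Mme (NCBI Gene 17380; chromosome 3, 63295211 to 63383713, plus strand), the gene of the peptide-degrading enzyme neprilysin, had 8 and 17 counts in tdTomato+ and 7 and 9 counts in ZsGreen+ libraries. The levels were 0.17 and 0.29 TPM against 0.10 and 0.14 TPM. In TPM both tdTomato+ libraries were higher, while in CPM the groups overlapped. That order in TPM was seen for 28.8% of the genes tested, which have more counts and do not include Mme. Its 95% Poisson intervals overlapped between all 4 libraries. It missed the count minimum, and without that minimum edgeR gave a log2 fold change of 0.50 (SE 1.00, adjusted p = 0.938). Neutrophils and fibroblasts are known to carry neprilysin. The 8 neutrophil markers summed to 45.2 and 48.1 CPM in tdTomato+ and to 34.3 and 17.1 CPM in ZsGreen+ cells, with 0 called and none at 0 in all libraries. Their part in the Mme counts was not tested.

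The remaining renin-angiotensin genes were either at background or not called. Of 23 listed genes 13 were tested, 0 were called in either direction, and the median log2 fold change was 0.08. Upstream parts of the system were nearly unread. Agt, the angiotensinogen gene, and Ren1, renin, had at most 3 counts in any library, and Agtr1b and Agtr2, further angiotensin receptors, had 0 in all 4. The smallest p-values were those of Agtrap, which binds the AT1 receptor (-0.24, SE 0.18), the mineralocorticoid receptor gene Nr3c2 (-0.28, SE 0.31) and prolyl endopeptidase, Prep (-0.15, SE 0.17).

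Kinins share their degrading enzymes with this system, since ACE and neprilysin both cut bradykinin. Of 12 listed kinin genes 7 were tested, of which 1 was called lower and 0 higher. Over all genes tested 0.137% were called lower and 0.167% higher. The median log2 fold change of the 7 was -0.68, beside -0.01 over all genes tested, with 6 below 0 and 1 above. The call was Xpnpep2, a membrane aminopeptidase that inactivates bradykinin, at 2.53 and 2.94 CPM in tdTomato+ against 17.3 and 20.1 CPM in ZsGreen+ cells (-2.77, SE 0.31, edgeR adjusted p = 0.0304). The call ended without tdTomato+ replicate 1 (edgeR adjusted p = 0.108), tdTomato+ replicate 2 (0.2) or ZsGreen+ replicate 2 (0.0609), and on the TPM scale (limma adjusted p = 0.084). Dpp4, a dipeptidyl peptidase, had 10.1 and 10.3 CPM in tdTomato+ and 22.2 and 50.3 CPM in ZsGreen+ libraries (-1.83, SE 0.39, edgeR adjusted p = 0.172). Bdkrb2, the constitutive bradykinin receptor, had 41.4 and 32.0 CPM in tdTomato+ and 63.9 and 54.1 CPM in ZsGreen+ libraries (-0.68, SE 0.21, edgeR adjusted p = 0.37). Bdkrb1, the inducible bradykinin receptor, named after its value was seen, had 1.61 (SE 0.68, edgeR adjusted p = 0.572) at a mean of 1.03 CPM. Kng1, a kininogen gene, and Klk1, a kallikrein, had 0 counts in all libraries.

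Signal carriers downstream of these receptors were all read, and 0 of 22 were called, with a median log2 fold change of 0.07. Itpr1, an intracellular calcium release channel, had 48.6 and 39.3 CPM in tdTomato+ and 23.3 and 25.8 CPM in ZsGreen+ libraries (0.84, SE 0.21, edgeR adjusted p = 0.236). The G protein subunit gene Gna12 had -0.89 (SE 0.37, edgeR adjusted p = 0.555). Gnaq, the subunit that couples the endothelin and AT1 receptors to phospholipase C, had 0.44 (SE 0.23, edgeR adjusted p = 0.708).

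**Figure D4:**
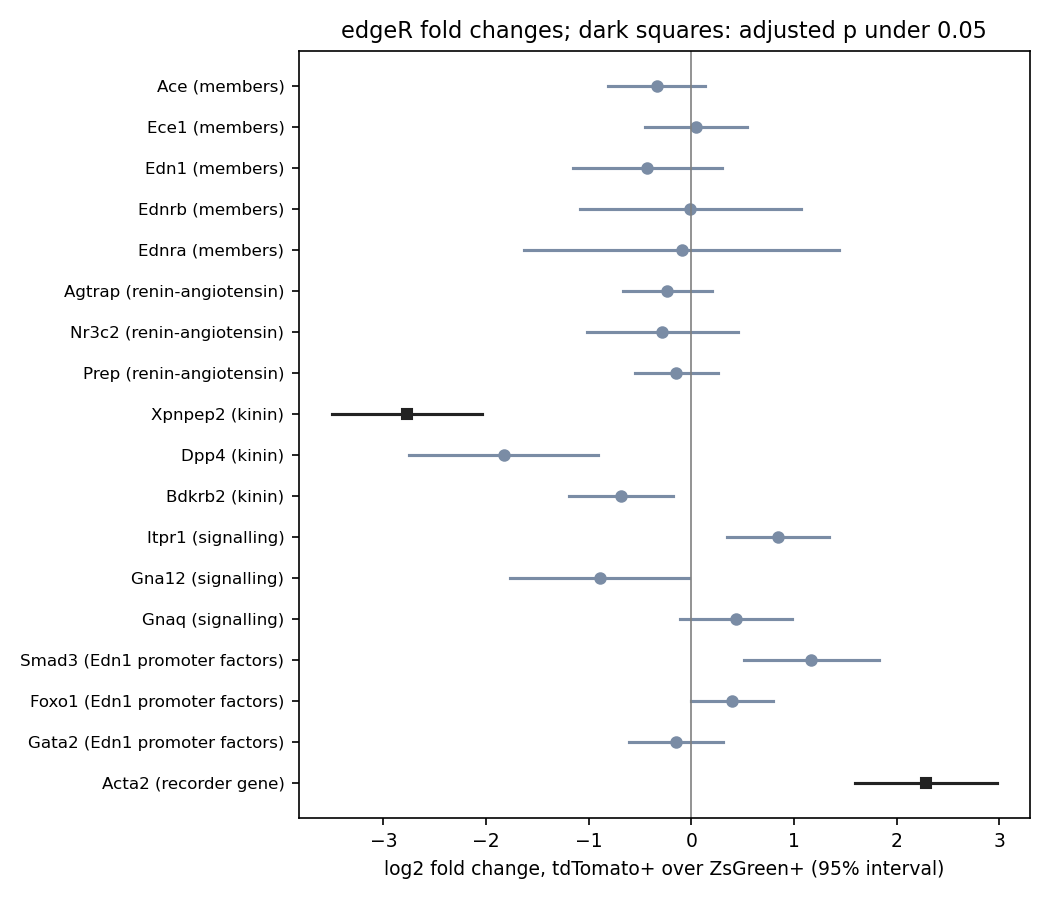
Log2 fold change (tdTomato+ over ZsGreen+) with 95% intervals from edgeR for the 5 tested members, for up to 3 genes of each related list and for Acta2. The intervals of all 5 members include 0; Xpnpep2 at -2.77 and Acta2 at 2.29 are the calls (dark squares).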

How the data were processed

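RNA of sorted cells was amplified over the whole transcriptome from a small input with a Discover-sc kit and sequenced as TruePrep libraries for MGI sequencers, per the labels' protocols, which can add spread between libraries. The submitters' processing notes name RSEM 1.3.1, DESeq2 1.4.5 and the build GRCm38, with no role (strandedness: not given in the sources used here). Of the deposited estimated counts 16.2% to 17.9% per library were fractional, and all were rounded for tests. TPM values were used as the authors deposited them. The deposited FPKM and normalized counts (a scaled signal) were not used.

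Groups and replicate numbers came from sample titles. edgeR 4.0.16 (R 4.3.3) ran a two-sided quasi-likelihood test with TMM and filterByExpr (minimum count 10), called at adjusted p under 0.05. Standard errors were derived from the F statistic, and 95% intervals use the moderated degrees of freedom. The residual degrees of freedom were 2. Permuting 2 against 2 libraries cannot go below an exact p of 0.333, so none is given. Total counts were 17399497 and 18574737 (tdTomato+) and 17050673 and 18165494 (ZsGreen+). On data simulated for 13177 genes, the test called 43% of 2-fold and 95.7% of 4-fold changes among genes at 5 CPM or more. It also called 19 of 38339 unchanged genes. The simulated libraries were independent, with a spread set by a gene's level alone and no deviation shared by same-numbered libraries. These shares therefore need not hold for genes such as Edn1 and Ednrb.

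The members and lists were chosen with earlier results of these data known. Named are the members, called genes and up to 3 genes with the smallest p (mean of at least 1 CPM) of 5 pathway lists, the 2 nearest profiles per member, up to 3 most abundant markers, and Acta2; others are marked in the text, and 1 nearest profile is not reported here. Tried as alternatives were upper quartile and RLE scaling, DESeq2 1.42.0, limma 3.58.1 (voom, and trend on log2 TPM), other filters, a robust prior, leaving out each library and a replicate block.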

Additional observations from a re-analysis of the deposited data

How the results depend on the processing

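No member was called under any of the 14 alternatives. Of 68 member values under alternatives 59 kept their direction and 9 turned, none past the threshold; Edn1 and Ace kept theirs under all 14. Ednrb turned to 0.03 with upper quartile factors, to 0.12 on log2(TPM + 1) and to 0.13 on log2(TPM + 0.1). On the TPM scales the median of all genes lay 0.13 and 0.14 above the edgeR fit. Leaving out single libraries moved Ednrb from -0.73 to 0.47, Ece1 from -0.11 to 0.21 and Ednra from -0.24 to 0.059, which includes turned values. The cause of these turns was not tested. Leaving out ZsGreen+ replicate 2, which leaves that group a single library, gave log2 fold changes of -0.70 for Edn1 and -0.45 for Ace. The count of 40 genes called was 326 with DESeq2, 128 without a filter on low counts, 22 with limma on log2(TPM + 0.1) and 934 with the replicate block. Leaving out single libraries, it ranged from 4 (without tdTomato+ replicate 2) to 304 (without ZsGreen+ replicate 1). Same-numbered libraries deviated together (r = 0.455 over 13177 genes), but the labels do not say that a number marks a mouse or batch. With the replicate block 0 of 5 members were called, and Edn1 had -0.44 (SE 0.23, edgeR adjusted p = 0.347). Depth limits Ednra, Agtr1a and Mme, whose libraries held 3 to 19 counts.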
